A study of Mus musculus with 6 samples.

Results

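The genes described here are Trp53, which encodes the transcription factor p53, and 9 genes that p53 is known to activate: Mdm2, Cdkn1a, Ccng1, Zmat3, Bbc3, Phlda3, Eda2r, Btg2 and Gdf15. They were taken by symbol from the deposited comparison table, which holds 21627 genes, and each symbol matched 1 row. All 10 were among the 14196 genes with enough counts to test. RNA was sequenced from organoids of mammary epithelial cells of female FVB/N mice 8 to 12 weeks old. One group carried the genotype MIC/Conditional Ezh2 KO (EZH2 fl/fl, called KO) and the other MIC/Wild-type (EZH2 wt/wt, called WT), with 3 libraries each. About 10000 cells per well formed acini for 6 days, and both groups then received 2 µg/ml doxycycline for 8 days. In MIC cells doxycycline switches on the polyomavirus middle T antigen, so both groups express this oncogene, and it also deletes the conditional Ezh2 alleles. A group without doxycycline is not analysed here. No source used here names the promoter behind these transgenes. Nor does any label say if a replicate is its own mouse or its own culture, so p-values measure only the spread between these libraries, which may be technical.

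p53 is a sequence-specific transcription factor that is kept low in unstressed cells because Mdm2, itself a p53 target, marks it for destruction. DNA damage and oncogene signalling stabilise the protein, so its activity is read from the RNA of its targets better than from Trp53 RNA. The targets slow the cell cycle, promote cell death, or feed back on p53. In mammary epithelium p53 restrains tumour formation, and it also acts on the cell cycle by way of p21, the product of Cdkn1a.

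The libraries held 27667054 to 29203634 counts in KO, against 18292722 to 23437024 counts in WT organoids. Ezh2 itself, the deleted gene, stood at 7.13, 7.28 and 5.84 CPM (counts scaled to a common library total) in KO replicates 1 to 3 and at 19.3, 22.6 and 14.7 CPM in WT replicates 1 to 3. KO replicates thus kept 35.8% of the WT mean, a log2 difference of −1.48 ± 0.20 (SE) with an adjusted p of 0.0755 by edgeR and 1.46e-07 by DESeq2. The epithelial keratin gene Krt8 lay between 1495 and 1501 CPM in KO and between 1622 and 1914 CPM in WT libraries, so the labelled epithelial cells were present in each. Markers of fibroblasts and immune cells were detected too, and their values stand beside the results below. In such bulk RNA, fewer cells of a type and less RNA per cell cannot be told apart.

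p53 binds DNA as a tetramer at a 20-base element built from a pair of adjoining 10-base units. Promoter sequences, 250 bases before to 50 bases after each annotated start, were taken from RefSeq (GRCm38.p6, the assembly behind mm10) and matched 9 of the 10 genes in 13 windows; Zmat3 had no entry. An element with at most 1 mismatch to the p53 consensus and no spacer was found in 2 of these windows, one of Cdkn1a and one of Ccng1. The consensus reads the same on both strands. Of all 32851 windows in the reference, 29 (0.0883%) held such a match. With up to 2 mismatches the same number of windows of these genes matched, 2 of 13, against 262 of all windows (0.798%). The limit of 1 mismatch was chosen after the Cdkn1a window had been seen. The 2 windows are shown because they carry the element next to genes that follow below, with the matched 20 bases in capitals.
Cdkn1a, chr17:29090729-29091028, plus strand: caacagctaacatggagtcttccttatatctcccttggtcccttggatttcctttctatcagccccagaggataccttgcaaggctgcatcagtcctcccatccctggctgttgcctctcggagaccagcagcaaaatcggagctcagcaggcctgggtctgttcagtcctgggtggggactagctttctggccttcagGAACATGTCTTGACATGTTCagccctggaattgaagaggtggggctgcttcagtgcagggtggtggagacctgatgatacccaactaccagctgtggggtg
Ccng1, chr11:40755237-40755536, minus strand: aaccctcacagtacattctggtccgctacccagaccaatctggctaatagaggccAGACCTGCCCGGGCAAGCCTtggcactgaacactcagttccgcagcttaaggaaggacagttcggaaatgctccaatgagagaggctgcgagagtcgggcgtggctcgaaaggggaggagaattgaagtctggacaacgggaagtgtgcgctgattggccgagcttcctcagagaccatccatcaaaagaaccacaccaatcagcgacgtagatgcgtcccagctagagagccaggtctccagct

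In the Cdkn1a window the element lies at 29090928 to 29090947 and begins 51 bases before the upstream of 2 annotated starts. It lies 2841 bases before the downstream start at 29093769. In the Ccng1 window the element lies at 40755462 to 40755481 and begins 195 bases before the start. A single exact 10-base unit was present in 4 of the 13 windows, 1 each of Cdkn1a, Ccng1, Mdm2 and Trp53, against 2745 of all windows (8.36%). These windows leave out introns and more distant sequence, so a window with no match shows only that these letters are not in it.

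All 10 genes averaged lower in KO than in WT organoids, and 0 of 10 passed edgeR's quasi-likelihood test at an adjusted p of 0.05, where 0.0% of all tested genes passed. At an unadjusted p under 0.05 edgeR placed 3 of 10 lower in KO (Gdf15, Bbc3 and Mdm2), against 10.9% of all tested genes placed lower and 19.8% placed either way. DESeq2 called 1 of 10 lower, Gdf15, against 3.4% of all tested genes called lower and 7.37% called either way. The median log2 fold change of the 10 genes was −0.48, beside −0.05 over all tested genes, of which 55.5% were negative. For Gdf15, Bbc3 and Mdm2 every KO library lay below every WT library, which held for 14.6% of all tested genes.

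The second pattern concerns single WT libraries. WT replicate 1 was the highest of the 6 libraries for 10 of 10 genes, whereas it was the highest for 25.5% of all tested genes. WT replicate 2 was the lowest WT library for 9 of the 10, all but Trp53, and lay within or below the range of the KO libraries for 6 of them. It was the lowest of all 6 libraries for 4 of the 10 genes, beside 27.7% of all tested genes. WT replicate 1 as the highest library together with WT replicate 2 as the lowest WT library occurred in 16.4% of all tested genes. WT replicate 3 lay between them for those 9 genes. These orders are by CPM, and 2 of them turned on the scaling. By the deposited FPKM (counts scaled by gene length and library total), Mdm2 was 33.1 in WT replicate 2 and 31.3 in WT replicate 3. Btg2 was 31.8 FPKM in WT replicate 2 and 31.2 in KO replicate 3. The KO libraries were more even, at a median coefficient of variation of 11.7% over the 10 genes, against 39.5% in WT. Over all tested genes these medians were 8.29% and 19.5%.

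**Figure D1:**
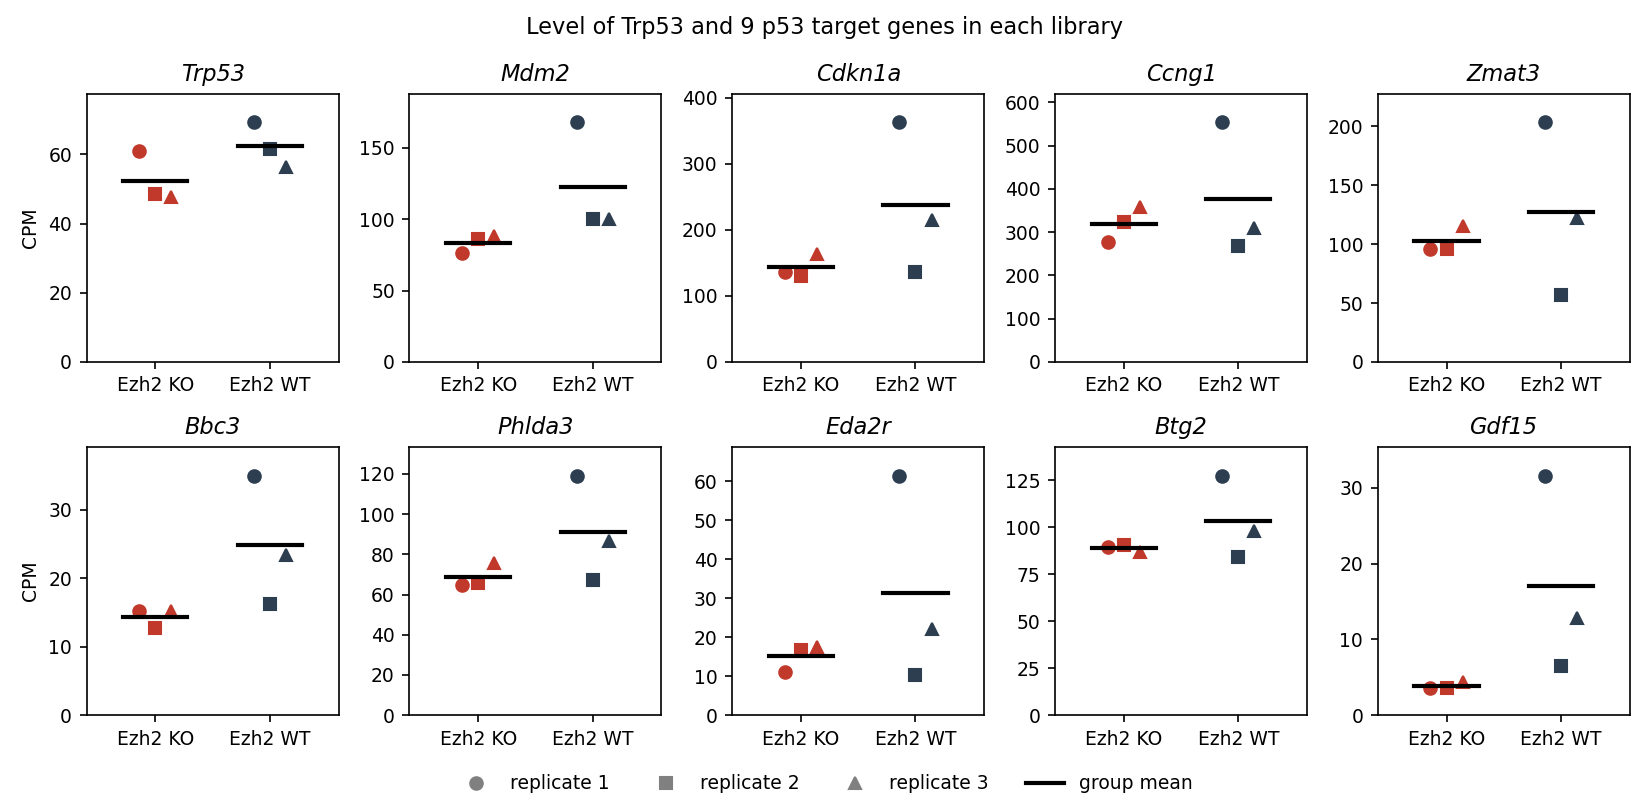
Level in CPM (y axes, starting at 0) of Trp53 and its 9 targets in the KO libraries (left of each panel) and the WT libraries (right), with 1 symbol per library and a bar at the group mean. WT replicate 1 is the highest point in all 10 panels, from 31.6 CPM for Gdf15 to 554 CPM for Ccng1.

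Trp53 (ENSMUSG00000059552, mm10, as for all positions given here, chromosome 11, 69580359 to 69591873) stood at 60.9, 48.5 and 47.6 CPM in KO replicates 1 to 3 and at 69.3, 61.7 and 56.4 CPM in WT replicates 1 to 3. The groups overlapped, since KO replicate 1 was above WT replicate 3. On the log2 scale the difference was −0.26 ± 0.14 (SE) and its 95% interval ran from −0.58 to 0.07; its adjusted p stood at 0.343 in edgeR. Among the 10 genes its WT libraries lay closest together, with a coefficient of variation of 10.3%.

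Mdm2 (chromosome 10, 117688888 to 117710758), the ubiquitin ligase that degrades p53, stood at 76.0, 86.1 and 88.1 CPM in KO, against 167.9, 99.8 and 100.4 CPM in WT libraries. The groups did not overlap, and WT replicates 2 and 3 were 1.20 times the KO mean where WT replicate 1 was 2.01 times that mean. edgeR put the log2 fold change at −0.56 ± 0.21 (SE) and its 95% interval ran from −1.06 to −0.06; its adjusted p stood at 0.222 in edgeR and 0.149 in DESeq2.

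Ccng1 (chromosome 11, 40748552 to 40755311) encodes cyclin G1, which works with phosphatase 2A on Mdm2, and it had the most counts of the 10 genes. Its level was 277.4, 323.2 and 357.1 CPM in KO, against 554.1, 268.0 and 308.6 CPM in WT libraries. WT replicate 1 stood alone at 1.74 times the KO mean, and WT replicates 2 and 3 lay among or below the KO libraries. In edgeR the adjusted p was 0.658, for a log2 fold change of −0.24 ± 0.27 (SE).

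Among the targets that halt the cell cycle, Cdkn1a (chromosome 17, 29090979 to 29100722) encodes the CDK inhibitor p21. It stood at 135.5, 129.7 and 164.0 CPM in KO, against 362.9, 136.9 and 214.3 CPM in WT libraries. WT replicate 2 lay inside the KO range, WT replicate 3 lay above it, and WT replicate 1 was 2.54 times the KO mean. Its log2 fold change was −0.73 ± 0.33 (SE) and its 95% interval ran from −1.50 to 0.03; its adjusted p stood at 0.269 in edgeR and 0.166 in DESeq2. An unconfirmed transcript is annotated on the opposite strand of Cdkn1a exons, and without strand its reads cannot be told apart from those of Cdkn1a.

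Btg2 (chromosome 1, 134075170 to 134079120) encodes an antiproliferative protein that promotes removal of poly(A) tails from mRNA. Its KO libraries were the most even of the 10 genes, at 89.5, 90.7 and 87.0 CPM, and its WT libraries held 127.6, 84.0 and 98.2 CPM. The groups overlapped through WT replicate 2. edgeR put the log2 fold change at −0.21 ± 0.16 (SE), with 0.482 as its adjusted p.

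Zmat3 (chromosome 3, 32334796 to 32365678) encodes a zinc finger RNA-binding protein that acts on mRNA stability and splicing. It spread furthest below the KO libraries in WT replicate 2, with 95.9, 95.9 and 115.1 CPM in KO, against 203.5, 57.2 and 122.3 CPM in WT libraries. WT replicate 1 was thus 1.99 times and WT replicate 2 was 0.559 times the KO mean. In edgeR the adjusted p was 0.688, for a log2 fold change of −0.32 ± 0.40 (SE).

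Of the targets tied to cell death, Bbc3 (chromosome 7, 16309616 to 16318205) encodes PUMA, a BH3-only protein that triggers the mitochondrial pathway of apoptosis. Its level was 15.3, 12.7 and 15.2 CPM in KO, against 35.0, 16.3 and 23.3 CPM in WT libraries. The groups did not overlap, although WT replicate 2 was only 1.13 times the KO mean. On the log2 scale the difference was −0.79 ± 0.27 (SE) and its 95% interval ran from −1.42 to −0.16; its adjusted p stood at 0.183 in edgeR and 0.0819 in DESeq2.

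Phlda3 (chromosome 1, 135766119 to 135769136) encodes a pleckstrin homology protein that holds back Akt at the membrane. It stood at 65.0, 65.6 and 75.6 CPM in KO, against 119.2, 67.3 and 86.8 CPM in WT libraries. WT replicate 2 lay inside the KO range and the other WT libraries above it. Its log2 fold change was −0.41 ± 0.20 (SE), at an adjusted p of 0.313 in edgeR.

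Eda2r (chromosome X, 97333840 to 97377216) encodes a receptor of the TNF receptor superfamily that binds ectodysplasin A2. It had 320, 493 and 476 counts in KO, against 1422, 211 and 396 counts in WT libraries, or 11.1, 16.8 and 17.5 CPM and 61.5, 10.2 and 22.2 CPM. WT replicate 2 was the lowest of the 6 libraries and WT replicate 1 the highest, 6.04 times apart. The coefficient of variation was 23.0% in KO and 85.8% in WT. In edgeR the adjusted p was 0.362, for a log2 fold change of −1.05 ± 0.59 (SE; interval −2.43 to 0.33).

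Gdf15 (chromosome 8, 70629393 to 70632456) encodes a secreted cytokine of the TGF-beta superfamily that also responds to the integrated stress response. It had the fewest counts of the 10 genes, with 104, 104 and 121 counts in KO, against 732, 134 and 230 counts in WT libraries. Counting error alone gives 104 counts a 95% exact Poisson interval of 85.0 to 126. On the CPM scale the libraries held 3.62, 3.54 and 4.44 in KO and 31.6, 6.46 and 12.9 in WT. The 3 KO libraries lay within a narrow range, and each WT library was above them, at 8.18, 1.67 and 3.33 times the KO mean.

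The KO mean of Gdf15 was 22.8% of the WT mean, the furthest below WT among the 10 genes. Its log2 fold change was −2.14 ± 0.54 (SE), with an interval of −3.41 to −0.86 and an adjusted p of 0.121 in edgeR and 0.00147 in DESeq2. In the authors' deposited table Gdf15 had a log2 fold change of −1.20 and an adjusted p of 0.00106, and 6.02% of the genes tested here were past 0.05 in that table. In the authors' deposited table the other 9 genes had adjusted p-values from 0.0918 for Bbc3 to 0.717 for Ccng1, and all had negative log2 fold changes.

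**Figure D2:**
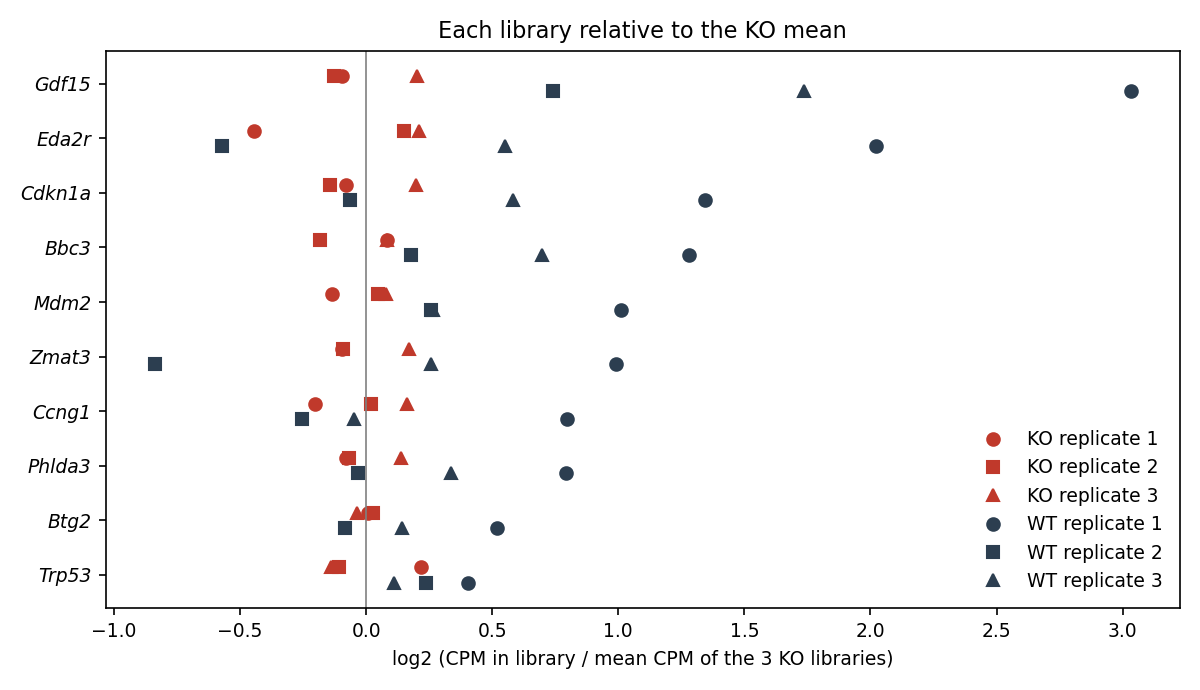
Log2 of the CPM in each library over the mean CPM of the 3 KO libraries (x axis) for each gene (rows), with KO libraries in the upper and WT libraries in the lower line of a row. WT replicate 1 lies furthest right in every row, at 8.18 times the KO mean for Gdf15 and 1.32 times for Trp53.

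Leaving out WT replicate 1, the highest library for all 10 genes, was bound to move their fold changes up. The differences became smaller in size for all 10 genes. Their median log2 fold change was then −0.16, beside −0.03 over all genes tested, and 8 were negative and 2 positive. Ccng1 was at 0.16 ± 0.14 (SE), Zmat3 at 0.21 ± 0.29, Eda2r at −0.08 ± 0.34 and Btg2 at −0.02 ± 0.10. Cdkn1a was at −0.28 ± 0.20 and Mdm2 at −0.25 ± 0.10. Gdf15 was at −1.30 ± 0.31 and Bbc3 at −0.44 ± 0.19, with adjusted p-values in edgeR of 0.0735 and 0.179. DESeq2 without WT replicate 1 called Gdf15 (adjusted p 0.00483) lower and no other of the 10 genes. Of all 14640 genes tested it called 13.7%, 943 lower and 1059 higher. With all libraries DESeq2 had called only Gdf15 of the 10, so no other gene could be called in both fits. The DESeq2 fit without WT replicate 1 was added after seeing the data, and edgeR called 0 of the 10 without that library.

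Leaving out WT replicate 2, by CPM the lowest WT library for all of these genes but Trp53, was likewise bound to move most fold changes the other way. Their median was then −0.68. DESeq2, in a fit added after seeing the data, then called 7 of the 10 lower in KO (Gdf15, Bbc3, Cdkn1a, Eda2r, Phlda3, Mdm2 and Zmat3). Of all 14543 genes tested it called 11.5%, 769 lower and 902 higher. Without WT replicate 2 the edgeR test called 1, Gdf15 (adjusted p 0.0455), where it called 1.49% of all genes tested (116 lower and 100 higher). Leaving out WT replicate 3 instead, DESeq2 called Gdf15 alone, beside 9.3% of all genes tested (582 lower and 773 higher). How many of these genes count as lower in KO organoids therefore depended on which WT libraries entered.

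**Figure D3:**
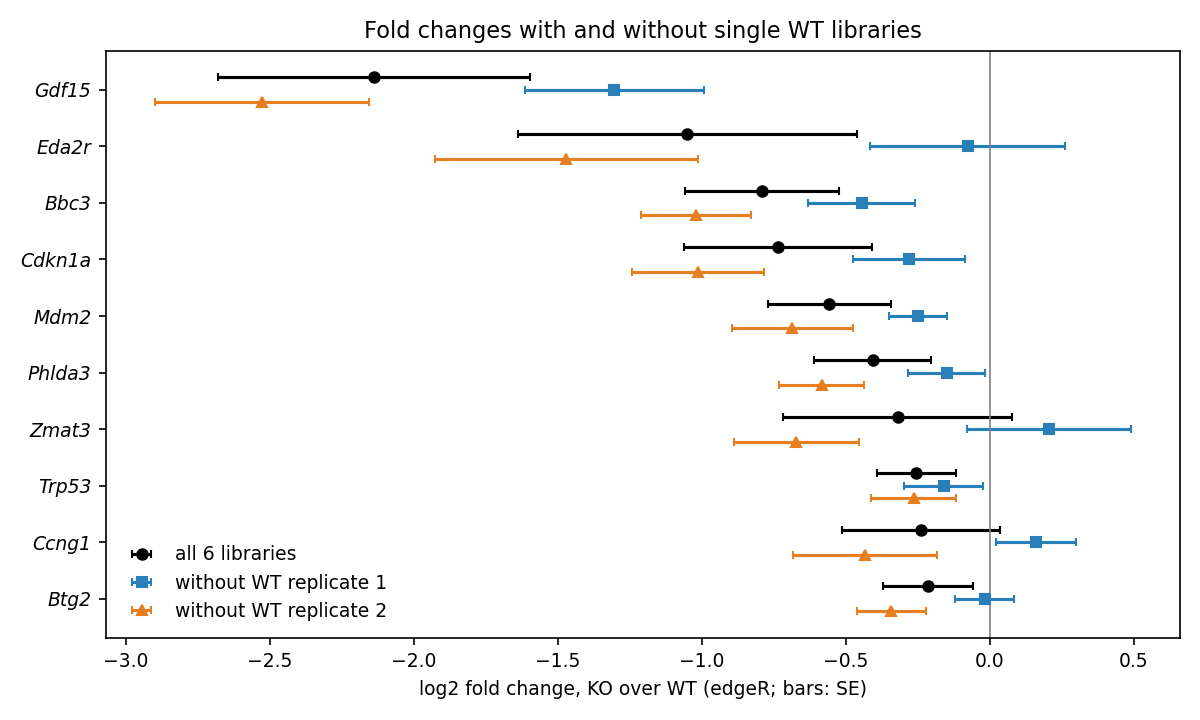
Log2 fold change of KO over WT in edgeR (x axis, bars show the SE) for each gene with all 6 libraries and with WT replicate 1 or 2 left out. With WT replicate 1 left out, Ccng1 and Zmat3 lie above 0 at 0.16 and 0.21, and Gdf15 stays furthest left at −1.30.

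Levels can be set between genes only per length, for which the deposited FPKM was used (counts scaled by gene length and library total). In KO organoids the mean level ran in the order Ccng1 (90.7 ± 10.5 FPKM, SD, n = 3), Cdkn1a (74.7 ± 8.60), Phlda3 (47.8 ± 3.51), Btg2 (32.4 ± 1.09), Mdm2 (26.6 ± 1.92), Trp53 (16.0 ± 2.37), Zmat3 (13.1 ± 1.25), Bbc3 (7.92 ± 0.767), Eda2r (3.17 ± 0.714) and Gdf15 (2.50 ± 0.291). Libraries of neighbours overlapped for Ccng1 and Cdkn1a, for Trp53 and Zmat3, and for Eda2r and Gdf15. In WT organoids Cdkn1a stood first (124 ± 57.9 FPKM) and Ccng1 next (107 ± 42.4), and Gdf15 (10.9 ± 8.29) stood above Eda2r (6.52 ± 5.54). In WT every pair of neighbours overlapped except Btg2 and Trp53.

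Among 10341 protein-coding genes with a mean of at least 5 CPM, likeness to Cdkn1a was measured as Pearson's r of log2(CPM + 1) over the 6 libraries, as a description. The most alike was Phlda3 (r = 0.998), followed by Slc41a3 (0.996), Cyb5r1 (0.995), Tmem181a (0.995) and Aldh1l2 (0.995). Without WT replicate 1 these 5 still had r from 0.977 to 0.992 over the other 5 libraries. Phlda3 was thus the closest of all these genes to Cdkn1a, and Bbc3 was at rank 101, Gdf15 at 171, Eda2r at 230, Btg2 at 265, Mdm2 at 423, Ccng1 at 662 and Zmat3 at 733. For several of these the likeness rested on WT replicate 1: over the other 5 libraries r was 0.323 for Ccng1, against 0.873 over all 6, 0.536 for Mdm2, against 0.914, and 0.614 for Zmat3, against 0.860. It was 0.702 for Btg2, 0.751 for Eda2r, 0.847 for Gdf15 and 0.891 for Bbc3. Trp53 was far down at rank 2404 (r = 0.564, and −0.06 without WT replicate 1). The genes most like Trp53 were Gpn2 (0.990), Slc25a3 (0.984), Ptcd2 (0.982), Commd10 (0.972) and Mtbp (0.972). All these points share the same 6 libraries and their depths.

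Beyond these genes, 34 other known p53 targets from 3 lists (arrest, death, and repair and metabolism) were tested. Of these, 29 had negative fold changes and 5 positive, where 55.5% of all tested genes were negative, with a median of −0.22 beside −0.05 over all tested genes. The edgeR test called 0 of 34, with 5 lower and 1 higher at an unadjusted p under 0.05, and DESeq2 called 3 lower: Bax, Gadd45a and Ephx1. Over all tested genes 19.8% of genes were past that unadjusted p and 10.9% were past it and lower in KO, while DESeq2 called 3.4% lower. WT replicate 1 was the highest library for 22 of the 34, against 25.5% of all tested genes. The lists were drawn up with earlier results of these data known.

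Bax, which encodes a pore-forming protein of mitochondrial apoptosis, had the smallest p of the 34. Its level lay between 51.4 and 60.4 CPM in KO libraries, against 107.3, 77.9 and 93.3 CPM in the WT ones, with no overlap. Its log2 fold change was −0.76 ± 0.14 (SE), with an adjusted p of 0.0867 in edgeR and 0.000965 in DESeq2, and without WT replicate 1 it was −0.62 ± 0.12 (adjusted p 0.00226 in DESeq2). Of the other cell death genes, Siva1 was at −0.52 ± 0.15, Pidd1 of the PIDDosome at −0.69 ± 0.31 and Pmaip1, which encodes the BH3-only protein Noxa, at −0.26 ± 0.16, and DESeq2 did not call them. The median of the 14 cell death genes was −0.25, or −0.04 without WT replicate 1.

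Of 7 listed arrest genes 6 were tested and Rprm was too low. Gadd45a, a stress sensor of the growth arrest and DNA damage family, stood at 7.02, 6.12 and 7.49 CPM in KO, against 45.0, 7.04 and 23.6 CPM in WT libraries. WT replicate 2 was within the KO range, as for Cdkn1a and Phlda3. Its log2 fold change was −1.88 ± 0.58 (SE), with an adjusted p of 0.159 in edgeR and 0.0100 in DESeq2, and an adjusted p of 0.0650 in DESeq2 without WT replicate 1. Ptpn14, a phosphatase that restrains YAP, went the other way at 0.47 ± 0.17, with Rap2b at −0.34 ± 0.14 and the kinase gene Plk2 at −0.38 ± 0.25 (adjusted p in DESeq2 from 0.136 to 0.464). The median of the 6 was −0.27, and leaving out WT replicate 1 or 2 gave −0.19 or −0.18.

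In the list of repair and metabolism, 13 of 14 genes were negative in fold change, and the median of all 14 was −0.18 (−0.12 with WT replicate 1 left out). Ephx1, an epoxide hydrolase, was at −0.33 ± 0.09 (SE; adjusted p 0.143 in edgeR and 0.0361 in DESeq2, and 0.0620 in DESeq2 without WT replicate 1). Ddb2, which recognises ultraviolet damage, was at −0.42 ± 0.19, with adenylate kinase Ak1 at −0.36 ± 0.21 and the translesion polymerase gene Polk at −0.42 ± 0.29. DESeq2 did not call these 3.

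Genes of the p53 family and its regulators did not move as one. Of 15 tested, 6 had positive and 9 negative fold changes, with a median of −0.10 (−0.03 without WT replicate 1). The edgeR test called 0, with 1 higher and 1 lower at an unadjusted p under 0.05 (19.8% of all tested genes either way), and DESeq2 called 1 (7.37% of all tested genes). These counts were no higher than the shares over all genes. The gene that DESeq2 called, Hipk2, encodes a kinase that phosphorylates p53 in response to damage. It stood at 248.4, 207.7 and 208.6 CPM in KO, against 143.9, 97.8 and 149.9 CPM in WT libraries. The groups did not overlap, which held in either direction for 28.8% of all tested genes. Its log2 fold change was 0.76 ± 0.18 (SE), with an adjusted p of 0.107 in edgeR and 0.00508 in DESeq2, or 0.00148 in DESeq2 without WT replicate 1.

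Mdm4, the partner of Mdm2 in holding p53 down, was at 43.2, 64.8 and 50.1 CPM in KO, against 111.9, 58.6 and 76.0 CPM in WT libraries, a log2 fold change of −0.64 ± 0.26. The damage kinase genes Chek2 and Atm were at −0.65 ± 0.30 and 0.41 ± 0.20, and DESeq2 called neither. Cdkn2a, a classical Polycomb target that encodes p16 and the Mdm2 inhibitor Arf, is named outside the rule, after its values were seen. It stood at 4.69, 4.25 and 3.97 CPM in KO, against 4.88, 4.63 and 5.54 CPM in WT libraries (log2 fold change −0.22 ± 0.20, adjusted p 0.577 in edgeR). Counts per gene do not separate its p16 and Arf transcripts.

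WT replicates 1 and 2 also differed in cell cycle genes, in the opposite order. All 12 listed genes that p53 is known to lower by way of p21 and the DREAM complex were lowest in WT replicate 1 and highest in WT replicate 2 of the 6 libraries. Over all tested genes, 25.0% were lowest in WT replicate 1 and 29.0% highest in WT replicate 2. Mki67, a marker of cycling cells, held 48.9, 52.1 and 30.7 CPM in KO, against 3.20, 60.8 and 19.4 CPM in WT libraries. Top2a, the topoisomerase of dividing cells, held 48.5, 45.7 and 31.8 CPM in KO, against 7.78, 68.3 and 24.8 CPM in WT libraries. Cdk1, the mitotic kinase gene, held 9.32, 8.09 and 6.68 CPM in KO, against 3.98, 21.7 and 8.22 CPM in WT libraries. The groups overlapped for all 12. Whether p53 had a part in the levels of these cell cycle genes was not tested.

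The sum of the 12 cell cycle genes was 180.1, 170.8 and 108.3 CPM in KO, against 24.4, 301.7 and 93.0 CPM in WT libraries. The sum of Trp53 and its 9 targets was 830.1, 872.8 and 971.5 CPM in KO, against 1732, 807.8 and 1045 CPM in WT libraries. Between the 2 groups the cell cycle genes held no call in edgeR or DESeq2 and none at an unadjusted p under 0.05 in edgeR. Their median log2 fold change was −0.12, turning to 1.45 when WT replicate 2 was left out and to −0.64 when WT replicate 1 was. Cdc20, which activates the anaphase-promoting complex, was at −0.32 ± 0.66 and Cdk1 at −0.49 ± 0.55, while Mki67 was at 0.66 ± 0.83 and Top2a at 0.32 ± 0.66.

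**Figure D4:**
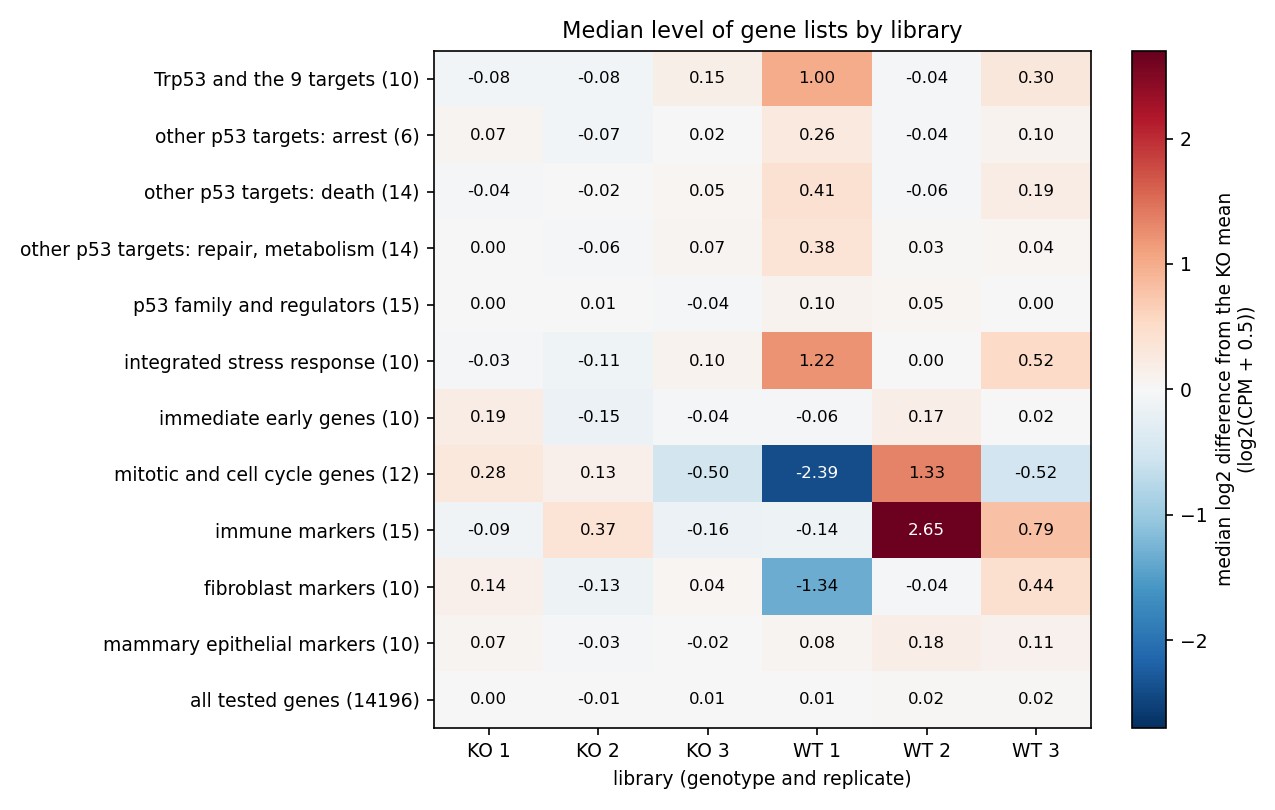
Median over each gene list (rows, number of tested genes in brackets) of the difference of log2(CPM + 0.5) from the mean of the KO libraries, for each library (columns, KO left of WT). In WT replicate 1 Trp53 and its 9 targets stand at 1.00 and the cell cycle genes at −2.39, and in WT replicate 2 they stand at −0.04 and 1.33.

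Other lists moved with the same libraries. Genes of the integrated stress response, a pathway that acts through Atf4 and also raises Gdf15, were highest in WT replicate 1 for 9 of 10 (25.5% of all tested genes), and their sum was 716.0, 675.4 and 796.1 CPM in KO, against 1774, 753.3 and 1010 CPM in WT libraries. Their median log2 fold change was −0.74, or −0.27 without WT replicate 1, with 10 of 10 negative. The edgeR test called 0 of 10, with 6 lower at an unadjusted p under 0.05 (10.9% of all tested genes), and 2 lower once WT replicate 1 was left out. DESeq2 called 2 lower (3.4% of all tested genes), Atf3 and Ddit3. Ddit3, the stress transcription factor gene CHOP, held 17.8, 17.7 and 24.3 CPM in KO, against 105.8, 17.6 and 61.9 CPM in WT libraries, with a log2 fold change of −1.63 ± 0.56 (SE; adjusted p 0.0225 in DESeq2, and 0.338 without WT replicate 1). Atf3 was at −0.87 ± 0.20, Ddit4 at −0.55 ± 0.19 and Vldlr at −0.46 ± 0.16. Immediate early genes, which answer growth factors and handling within minutes, had a median of −0.06, with 0 of 10 past either tool's test or an unadjusted p under 0.05 in edgeR; Fos was at −0.36 ± 0.16 and Junb at −0.21 ± 0.13, and Nr4a1 at 0.41 ± 0.19 and Dusp1 at 0.21 ± 0.13. Of the 10 immediate early genes, 4 were positive and 6 negative.

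Markers of other cells also differed between these libraries. The 10 fibroblast markers summed to 8984 to 10461 CPM in KO libraries and to 2621, 9739 and 13363 CPM in WT libraries. Of the 10, 9 were lowest in WT replicate 1 (25.0% of all tested genes). All 10 were highest in WT replicate 3, against 1818 of the 14196 tested genes. The 15 tested immune markers summed to 520.7 to 672.4 CPM in KO libraries and to 506.6, 2450 and 835.9 CPM in WT libraries. Of the 15, 14 were highest in WT replicate 2 (29.0% of all tested genes). Cd14 and Lyz2 made up much of these sums. Cd14 held 384.1, 360.7 and 314.8 CPM in KO, against 320.3, 442.2 and 302.1 CPM in WT libraries (log2 fold change −0.01 ± 0.17). Lyz2 held 132.5, 171.7 and 101.3 CPM in KO, against 78.0, 1277 and 338.7 CPM in WT libraries. Cd3e, which marks T cells, had at most 0.147 CPM in any library. The 10 mammary epithelial markers summed to 5005 to 5154 CPM in KO and to 5344 to 5972 CPM in WT libraries. Single markers could vary more than this sum. Elf5 held 136.2, 140.4 and 108.4 CPM in KO, against 46.5, 232.1 and 101.3 CPM in WT libraries. Krt17 held 24.7, 26.3 and 31.9 CPM in KO, against 107.1, 28.3 and 34.0 CPM in WT libraries. Fold changes of these lists had medians of 0.06 for fibroblast, −1.58 for immune and −0.19 for epithelial markers. The immune median was −0.43 with WT replicate 2 left out, and the fibroblast median was −0.23 with WT replicate 1 and 0.62 with WT replicate 3 left out. The part of these cell types, and of the stress genes, in the levels of the p53 targets was not tested.

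Among the fibroblast markers, the edgeR test and DESeq2 called 0 of 10, with 0 at an unadjusted p under 0.05 in edgeR, and 6 were positive and 4 negative. Thy1 was at 0.39 ± 0.46, Pdgfrb at 0.29 ± 0.40, Dcn at −0.28 ± 0.39 and Vim at −0.10 ± 0.20. Among the immune markers DESeq2 called Itgam (−1.45 ± 0.37) and Tyrobp (−1.99 ± 0.75) lower, where it called 3.4% of all tested genes lower. edgeR called 0 of 15, with 7 lower at an unadjusted p under 0.05 (10.9% of all tested genes), or 2 with WT replicate 2 left out. All 15 were negative in edgeR, where 55.5% of all tested genes were. Cd68 was at −1.01 ± 0.36 and Fcer1g at −1.55 ± 0.58. Among the epithelial markers DESeq2 called Krt19 (−0.89 ± 0.21) lower (3.4% of all tested genes). edgeR called 0 of 10, with 1 lower at an unadjusted p under 0.05 (10.9% of all tested genes). Of the epithelial markers, 3 were positive and 7 negative. Krt17 was at −1.03 ± 0.49, Krt8 at −0.23 ± 0.13 and Cdh1 at 0.15 ± 0.13.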

How the data were processed

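Poly(A) RNA of 6 organoid libraries was fragmented and copied with random hexamer primers, per the labels' protocols, with no step named that marks the strand. Per the submitters' processing notes, CASAVA, STAR and the mm10 build were used; no source used here gives versions, the counting tool or the annotation. The authors deposited raw read counts per gene, FPKM, a normalized group mean (signal), a log2 fold change and p-values in 1 table. FPKM equalled counts per gene length and column total (largest relative difference 2.13e-07). The signal columns were not used. The deposited log2 fold changes were smaller in size than those fitted here for all 10 genes, and no source used here says how they were made.

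Counts were tested over all 14196 genes passing edgeR's default filter (minimum count 10, minimum total 15) in R 4.3.3 by edgeR 4.0.16, with TMM scaling, a robust quasi-likelihood F test and Benjamini-Hochberg adjustment at 0.05. CPM uses TMM-scaled library sizes. DESeq2 1.42.0 and limma 3.58.1 (log2(FPKM + 1) and log2(FPKM + 0.1), at least 0.5 FPKM in 3 libraries) were alternatives, beside other scalings and filters, no robust estimation, the replicate number as a block and each library left out. The scripts were tested on simulated data. Named are the 10 genes, Ezh2, up to 4 genes of each other list with the smallest p, and the 5 genes most like Cdkn1a and Trp53. Cdkn2a, Elf5, Cd14, Lyz2, Cd3e and Rprm were named outside this rule, after their values were seen. DESeq2 without each WT library was added after seeing the data. The genes and lists were chosen with earlier results of these data known. Without molecular identifiers PCR copies remain, and Poisson intervals cover counting error only.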

Additional observations from a re-analysis of the deposited data

How the results depend on the processing

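With all 6 libraries edgeR called 0 genes and 0 of the 10 p53 genes. DESeq2 called 1046 and 1, no filter on low counts 131 and 0, and limma-trend on log2(FPKM + 1) or log2(FPKM + 0.1) 2 and 0 each. Other scalings, the filter of 1 CPM in 3 libraries and no robust estimation gave 0 and 0. Leaving out 1 library gave 0 to 216 genes in edgeR (38 without WT replicate 1, 216 without WT replicate 2) and 0 to 1 of the 10. Added after seeing the data, DESeq2 without WT replicate 1, 2 or 3 called 2002, 1671 and 1355 genes and 1, 7 and 1 of the 10. All 10 genes kept negative fold changes in every setting that held WT replicate 1. Without it Ccng1 turned to 0.16 (0.17 in DESeq2) and Zmat3 to 0.21 (0.21 in DESeq2), since the WT group then has only the 2 lower libraries. Over single libraries left out in edgeR, log2 fold changes ran from −2.53 to −1.30 for Gdf15, −1.47 to −0.08 for Eda2r, −1.01 to −0.28 for Cdkn1a, −0.43 to 0.16 for Ccng1 and −0.67 to 0.21 for Zmat3. Same-numbered libraries were not shown to pair: their deviations correlated at −0.07, 0.25 and 0.08, and not every library correlated best with its own number. With the replicate block edgeR called 0 genes and 0 of the 10. The lowest count of any of the 10 genes in a library was 104, for Gdf15 in KO libraries. Counting error relative to the count was therefore largest there.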
